A study of Oreochromis niloticus with 5 samples.

Results

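Type I collagen, decorin and periostin are secreted proteins of the connective tissue of muscle, and their transcripts were followed in fast muscle of Nile tilapia (Oreochromis niloticus). The genes were chosen by name, with earlier results of these data known, and with 1 listed transcript per gene. They are the 3 type I collagen genes col1a1a (rna5477), col1a1b (rna21885) and col1a2 (rna62444), the decorin gene dcn (rna48833) and the periostin genes postna (rna27614) and postnb (rna40871). Together they are 6 of the 80416 listed features, and they took between 0.0450% and 0.109% of the counts of a library. Fast (white) muscle of 5 male full siblings, named M1 to M5, was sequenced as 1 RNA-Seq library per fish after removal of ribosomal RNA. The labels give an age of 5 months, and the methods of the study state a longer rearing time. There was 1 condition and no control group, so the comparisons below are between genes within a fish and between fish. All 5 fish come from 1 family, which limits how far their spread stands for other fish.

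Type I collagen is the main fibril-forming collagen of connective tissue. Its molecule is a triple helix, in mammals built of a pair of α1 chains and a single α2 chain, and in several teleosts the duplicated col1a1 gene encodes a further chain that can enter the same helix. Decorin is a small leucine-rich proteoglycan that binds collagen fibrils and, in mammals, TGF-beta. Periostin is a matricellular protein that is secreted by fibroblasts of mammals and binds to collagen. In skeletal muscle of mammals these proteins are made mainly by fibroblasts of the sheaths around fibers and fiber bundles. Which cells of the tilapia muscle made the transcripts was not tested.

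The annotation placed the members on 6 linkage groups of the assembly O_niloticus_UMD_NMBU. The col1a1a transcript lay on linkage group 4 (4581578 to 4600774, minus strand) and had 48 exons and 5985 bases. That of col1a1b lay on linkage group 8 (7556243 to 7574385, plus strand) and had 44 exons and 5113 bases, and that of col1a2 on linkage group 22 (24418936 to 24436475, plus strand) had 50 exons and 4487 bases. The collagen genes shared an exon structure that the other members lacked. Exons of exactly 54 bases numbered 17 of 48 in col1a1a, 18 of 44 in col1a1b and 22 of 50 in col1a2, against 0 in dcn, postna and postnb. Exons whose length was a multiple of 9 bases, the length that encodes one Gly-X-Y triplet of the helix, made up 83.3% in col1a1a, 84.1% in col1a1b and 86.0% in col1a2, against 13.5% of the 375345 exon intervals of all listed transcripts. The dcn transcript had 8 exons and 2067 bases (linkage group 17, 13390993 to 13410890, plus strand). Those of postna (linkage group 10, 15647809 to 15663828, plus strand, 24 exons, 3491 bases) and postnb (linkage group 14, 30861981 to 30880816, minus strand, 22 exons, 3845 bases) were alike in exon number and length.

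The libraries held between 26750559 and 90337019 counts, and M2 was the deepest. M1 had the fewest counts and the largest share of ribosomal RNA, 0.201% against 0.00784% to 0.0164% in M2 to M5. The sequencing summary of the study also sets this library apart by a lower alignment rate, so the results below are given with and without it where they rest on it. Counts were divided by median-of-ratios size factors, and these normalized counts are used for comparisons between fish. Markers of fast muscle fibers summed to between 2.71e+06 (M3) and 3.43e+06 (M1) normalized counts per fish. Without acta1b their sum was highest in M5 (2.16e+06, against 2.07e+06 in M1). Slow muscle markers summed to 49.4 in M1 and 2.17 to 9.97 in M2 to M5. The slow muscle sum in M1 rested on tnnc1a, with 26 raw counts there. Without this gene it was 6.59 in M1 and 0 to 5.98 in M2 to M5. The members were counted deeply enough that counting error alone gave a coefficient of variation between 1.27% and 7.14% at most per gene, against 24.1% to 51.4% observed between fish.

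col1a1a, which encodes an α1 chain, had 20685 normalized counts (M1), 9240 (M2), 7708 (M3), 12347 (M4) and 6134 (M5), a mean of 11223 ± 5766 (SD, n = 5). M1 stood above the other fish, M4 came next and M5 was lowest, with a 3.37-fold span that was 2.01-fold without M1. Its paralog col1a1b had 11347 normalized counts (M1), 5233 (M2), 6304 (M3), 6809 (M4) and 4910 (M5), with a mean of 6920 ± 2592. M1 was again highest and M5 lowest, and the M2 to M5 values lay within 1.39-fold of each other. col1a2, the gene of the α2 chain, had 13038 normalized counts (M1), 6622 (M2), 5590 (M3), 7926 (M4) and 4437 (M5), with a mean of 7523 ± 3341. Its order of fish was that of col1a1a.

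dcn had 1022 normalized counts (M1), 705 (M2), 666 (M3), 631 (M4) and 585 (M5), with a mean of 722 ± 174. M1 stood apart, and the other 4 fish lay within 1.21-fold of each other. postna had 545 normalized counts (M1), 349 (M2), 268 (M3), 284 (M4) and 195 (M5), with a mean of 328 ± 133, so that M1 was highest and M5 lowest. postnb had 1572 normalized counts (M1), 988 (M2), 976 (M3), 646 (M4) and 1083 (M5), with a mean of 1053 ± 334. M1 was highest here too, but M4, which was second for the 3 collagen genes, was lowest, and M5 was second.

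**Figure D1:**
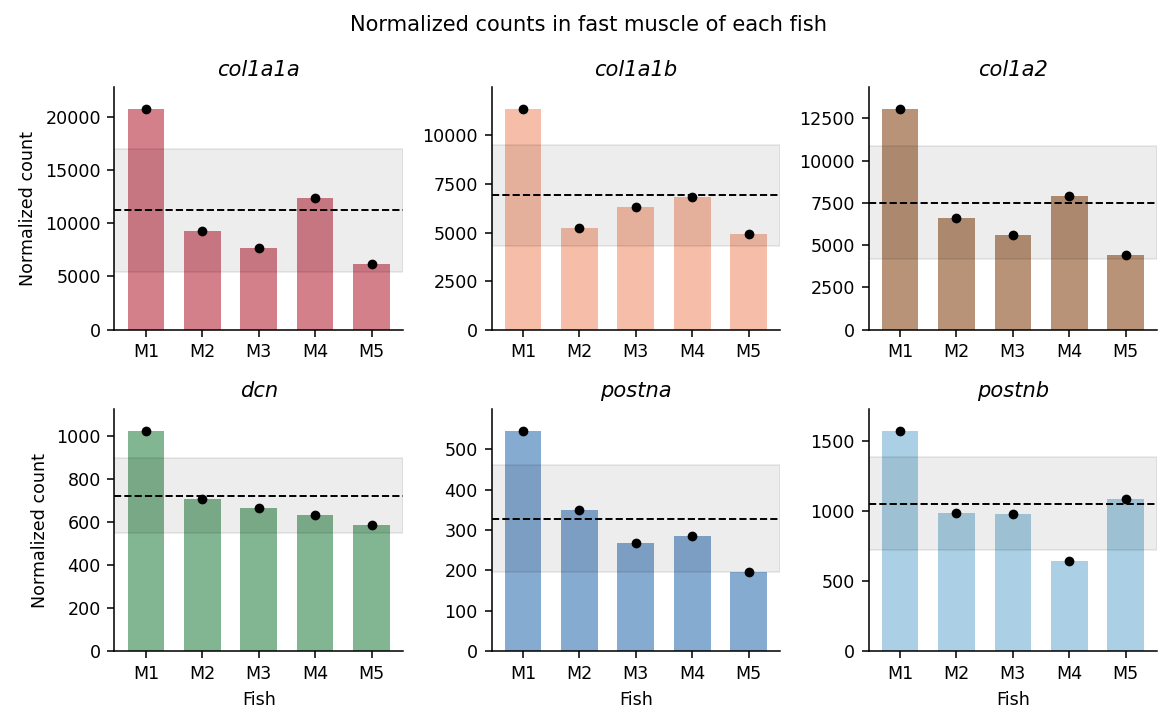
Normalized counts (vertical axis, from 0, a scale of its own in each panel) of the 6 genes in the fast muscle of fish M1 to M5 (horizontal axis). Bars and points are the value of each library, the dashed line is the mean over 5 fish and the gray band is 1 SD to either side. M1 is the highest fish in each panel, at 20685 for col1a1a, and M5 is the lowest in 5 of the 6.

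All 6 members were highest in M1, against 15.1% of the 7206 genes with a mean of at least 100 normalized counts. Because the members were chosen with earlier results of these data known, shares of all genes are given here for scale only. The level in M1 over the mean of the other 4 fish was 2.34 for col1a1a, 2.12 for col1a2, 1.99 for postna, 1.95 for col1a1b, 1.70 for postnb and 1.58 for dcn. M5 was the lowest fish for 5 of the 6 members, against 21.1% of those genes. The SD over fish of the log2 normalized count, with a pseudocount of 1, was 0.68 for col1a1a, 0.59 for col1a2, 0.55 for postna, 0.48 for col1a1b, 0.46 for postnb and 0.31 for dcn. The median of all genes tested was 0.27, and 92.2% of them varied less than col1a1a, against 60.0% that varied less than dcn. Without M1 the SD was 0.43 for col1a1a, 0.36 for col1a2, 0.35 for postna, 0.33 for postnb, 0.22 for col1a1b and 0.11 for dcn. In bulk tissue, fewer cells of a type and less RNA per cell cannot be told apart.

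Several marker lists of other cells were highest in M1 in sum, some of them through 1 gene. Fibroblast markers (5 genes, of which 3 also stand in a matrix list) summed to 1765 normalized counts in M1 and 1294 to 1490 in M2 to M5, but 2 of the 5 were highest in M1, and without dpt the sum was 413 in M1 and 433 in M2. Tendon markers (3 genes, 2 highest in M1) summed to 142 in M1 and 69.3 to 112 in the other fish, and skin markers (2 genes, 1 highest in M1) to 75.7 in M1 and 26.9 to 55.6 in the other fish. Macrophage markers (3 genes) summed to 137 in M1 and 91.8 to 105 in the other fish. Without csf1ra the sum was 74.1 in M1, 70.4 in M3 and 72.8 in M5. Without cd68, the macrophage gene of highest level per kb, it was 82.3 in M1 and 38.9 to 53.2 in the other fish. Endothelial markers (5 genes) were highest in M5 (1229), with M1 close to it (1171) and M2 to M4 between 789 and 994. Red blood cell markers (3 genes, 115 to 242) were highest in M5 too. Osteoblast and scale markers (6 genes, 20.0 to 45.5) were highest in M3, with sp7 at 0 in all 5 fish. Without runx2b their sum was 9.75 in M3, 18.1 in M1 and 23.9 in M5. Adipocyte markers (3 genes, 1771 to 2990) were highest in M1, with fabp4b at 0, but without fabp4a the sum was 933 in M1 and 953 in M3. Liver markers (2 genes, 2.42 to 13.2) were highest in M1, with fgb at 0. That sum was fga alone, which had only 2 to 10 raw counts per library, with 8 in M1 and 10 in M5. Of the symbols on these lists, 5 of 5 matched for fibroblasts, 3 of 3 for tendon, 4 of 4 for osteoblasts and for endothelium, 3 of 4 for macrophages, 4 of 6 for fast muscle, 2 of 5 for liver and 2 of 4 for each of the others. The part of these cells, of the slow muscle markers and of ribosomal RNA in the members' levels was not tested.

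Levels were compared between genes as normalized counts per kb of transcript. The order was col1a1a (1875 ± 963), col1a2 (1677 ± 745), col1a1b (1354 ± 507), dcn (349 ± 84.0), postnb (274 ± 86.9) and postna (94.0 ± 38.1; SD, n = 5 each). col1a1a ranked 419th and postna 3949th among all genes by this level. The SDs of neighbors in this order overlapped for the 3 collagen genes and for dcn and postnb, but each fish gave both values of a ratio, so the 7 ratios below were tested within fish. The test was an exact permutation of signs over 5 fish (two-sided), whose smallest possible p is 0.0625, so no ratio could reach 0.05. Counting intervals (95%) of a ratio cover counting error only.

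The chain ratio, the sum of both col1a1 copies over col1a2 per kb, was 1.95 (M1), 1.74 (M2), 2.02 (M3), 1.92 (M4) and 2.01 (M5). It averaged 1.93 ± 0.114 (SD, n = 5), and its highest and lowest values, in M3 and M2, differed 1.16-fold. The summed normalized counts of the 3 genes differed 2.91-fold between fish, a span that rested largely on M1. They were 45070 in M1, and M2 to M5 lay between 15481 (M5) and 27082 (M4). A helix of a pair of α1 chains and a single α2 chain corresponds to a protein ratio of 2. The counting intervals of M3 (1.96 to 2.09) and M5 (1.94 to 2.08) held that value and M1 reached it (1.90 to 2.00), whereas M4 (1.87 to 1.98) and M2 (1.71 to 1.77) lay below it. The mean log2 difference from 2 was −0.054 ± 0.088, with 2 fish above and 3 below (exact permutation test, p = 0.25, also 0.25 after Benjamini-Hochberg adjustment over 7 ratios). The value depended on the transcript lengths used. Without division by length the mean log2 difference was 0.27 (exact p = 0.0625), and with the shortest listed transcript of each gene, an alternative chosen after the values were seen, it was −0.24 (exact p = 0.0625).

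**Figure D2:**
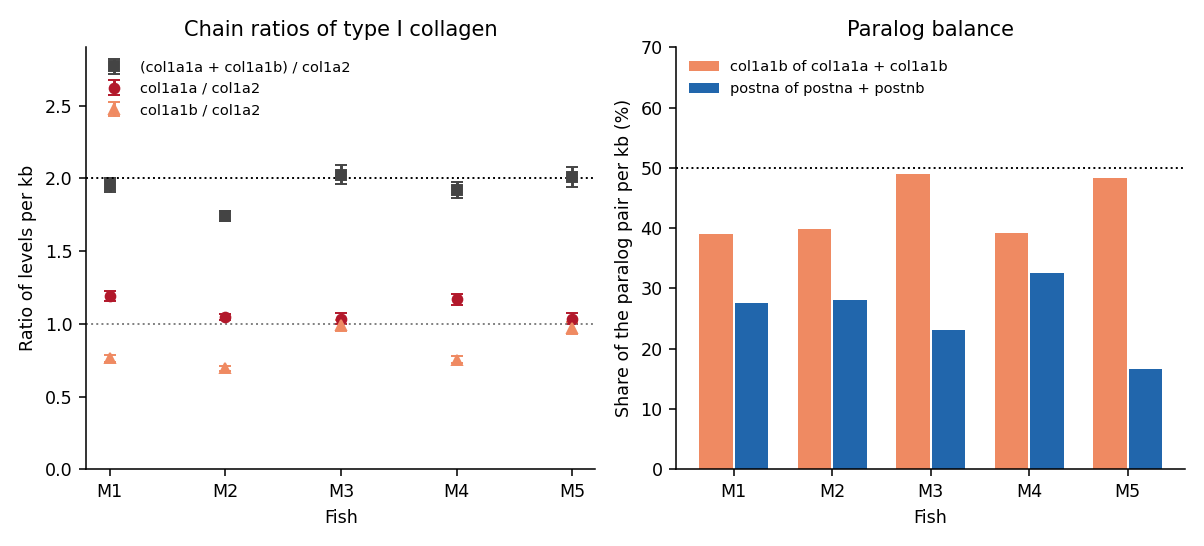
Left, ratios of levels per kb (vertical axis, no unit) in fish M1 to M5, with 95% counting intervals as bars and dotted lines at 2 and 1. The chain ratio (squares) stays between 1.74 in M2 and 2.02 in M3, while col1a1b over col1a2 (triangles) is nearest to 1 in M3 and M5. Right, share (%) of each paralog pair per kb taken by col1a1b and by postna in the same fish, with a dotted line at equal shares. The col1a1b share is 48.9% in M3 and 48.4% in M5, against 39.1% to 39.9% in the other fish.

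The balance of the col1a1 paralogs was less even across fish than the chain ratio. col1a1a over col1a1b per kb was 1.56 (M1), 1.51 (M2), 1.04 (M3), 1.55 (M4) and 1.07 (M5), with a mean of 1.35 ± 0.265. The fish formed a group of 3 near 1.5 and a pair, M3 and M5, near equality, and the counting intervals of the pair (1.01 to 1.08 in M3, 1.03 to 1.11 in M5) lay below those of the others, whose lower bounds were 1.47 to 1.51. The mean log2 ratio was 0.40 ± 0.30, above 0 in 5 of 5 fish (exact permutation test, p = 0.0625, adjusted p = 0.0729). With the shortest listed transcripts it was 0.32 (exact p = 0.125), so not every fish stayed above 0. As a share, col1a1b gave 39.1%, 39.9%, 48.9%, 39.2% and 48.4% of the col1a1 level per kb in M1 to M5. M3 and M5, the fish with the larger col1a1b share, were also those with the least col1a1a (7708 and 6134 normalized counts, against 9240 to 20685 in the other fish), a gene that the share contains.

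Each paralog was also set against col1a2. col1a1a over col1a2 per kb was 1.19 (M1), 1.05 (M2), 1.03 (M3), 1.17 (M4) and 1.04 (M5), with a mean of 1.09 ± 0.0772, above 1 in 5 of 5 fish (exact permutation test, p = 0.0625, adjusted p = 0.0729). With the shortest listed transcripts this mean changed sign on the log2 scale (−0.098, exact p = 0.25, against 0.13 with the members). col1a1b over col1a2 was 0.764 (M1), 0.693 (M2), 0.990 (M3), 0.754 (M4) and 0.971 (M5), with a mean of 0.834 ± 0.136, below 1 in 5 of 5 fish (exact permutation test, p = 0.0625, adjusted p = 0.0729). Without division by length the mean log2 ratio of col1a1b to col1a2 was −0.088 (exact p = 0.375), so not every fish lay below 1. By level per kb, M3 and M5 were thus the fish in which the 3 chains were nearest to equal levels.

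The periostin paralogs lay further apart in level than the col1a1 paralogs in each fish. postna over postnb per kb was 0.382 (M1), 0.390 (M2), 0.302 (M3), 0.484 (M4) and 0.199 (M5), with a mean of 0.351 ± 0.107. postnb was the higher paralog in 5 of 5 fish, with a mean log2 ratio of −1.57 ± 0.49 (exact permutation test, p = 0.0625, adjusted p = 0.0729). The ratio spanned 2.44-fold between M4 and M5, whose counting intervals (0.415 to 0.564 and 0.171 to 0.231) did not meet. postna thus gave 32.6% of the periostin level in M4 and 16.6% in M5.

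dcn over col1a2 per kb was 0.170 (M1), 0.231 (M2), 0.259 (M3), 0.173 (M4) and 0.286 (M5), with a mean of 0.224 ± 0.0516. The ratio was lowest in M1 and M4 and highest in M5, an order that follows largely from col1a2, the more variable gene of the pair. The mean log2 ratio was −2.19 ± 0.34, below 0 in 5 of 5 fish (exact permutation test, p = 0.0625, adjusted p = 0.0729), and it was −3.31 without division by length. dcn over postnb was 1.21 (M1), 1.33 (M2), 1.27 (M3), 1.81 (M4) and 1.00 (M5), with a mean of 1.33 ± 0.300, above 1 in 5 of 5 fish (exact permutation test, p = 0.0625, adjusted p = 0.0729). In M5 the counting interval (0.909 to 1.11) held equality, so the order of these neighbors was not resolved in that fish, and without division by length postnb was the higher gene (mean log2 ratio −0.52).

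The counts of the listed isoforms of the collagen genes were set beside those of the members. The shortest listed transcript of col1a1a (rna5479) lacks 1443 bases of the member, 24.1% of its length, of which 1429 lie beyond its 3′ end. Its count was lower than that of the member by 34.3% (M1), 38.3% (M2), 30.5% (M3), 31.6% (M4) and 36.7% (M5). That was more than the share of bases in each fish, although rna5479 also has 54 bases that the member lacks. The shorter transcript of col1a1b (rna21886) lacks 887 bases, 17.3% of the member, of which 872 lie beyond its 3′ end. Its count was lower than that of the member by 15.3% to 16.7%. This is a net difference, because rna21886 also has 513 bases that the member lacks. Fragments on those bases offset the loss, so the difference cannot be compared with the share of bases. col1a2 and dcn had 1 listed transcript each. Isoforms share fragments in this counting, so these are not levels of separate isoforms.

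Whether the members covaried across fish was described by the SD over fish of the log2 ratio of a pair. Size factors cancel in it, and 5 fish are too few for a correlation. This SD grows where the genes differ in their pattern over fish, and also where they differ in the size of their changes. col1a1a and col1a2 moved together most closely. Their ratio had an SD of 0.10, against 0.68 and 0.59 for the genes alone, and it was 0.085 without M1, against 0.43 and 0.36. col1a2 and postna came next, at 0.21 (0.24 without M1), and then col1a1b and col1a2 at 0.23. The ratio of col1a1b to col1a2 without M1 had an SD of 0.26, which lay above the 0.22 of col1a1b alone. dcn had SDs of 0.25 with col1a1b, 0.26 with postna, 0.31 with postnb, 0.34 with col1a2 and 0.44 with col1a1a.

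The ratios of postnb to the collagen genes varied more, and M4 weighed on them. The ratio had an SD of 0.68 with col1a1a, 0.59 with col1a2 and 0.46 with col1a1b, each at least as large as the SD of postnb alone (0.46). Without M4 these SDs were 0.51, 0.43 and 0.30, the last of them below the 0.55 of col1a1b and the 0.32 of postnb alone. The ratio to its own paralog postna had an SD of 0.49. In 9 of the 15 pairs of members the ratio varied less than both genes. They were 8 of 10 pairs without postnb and 1 of 5 pairs with it. The latter was dcn and postnb (0.309, against 0.313 for dcn alone). The count of 9 rested on M1. Without this fish, it was 3 of 15 pairs, all of them between col1a1a, col1a2 and postna. The pairs reuse the same genes and fish. The share of such pairs among all genes was not computed, so these counts describe the members only.

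**Figure D3:**
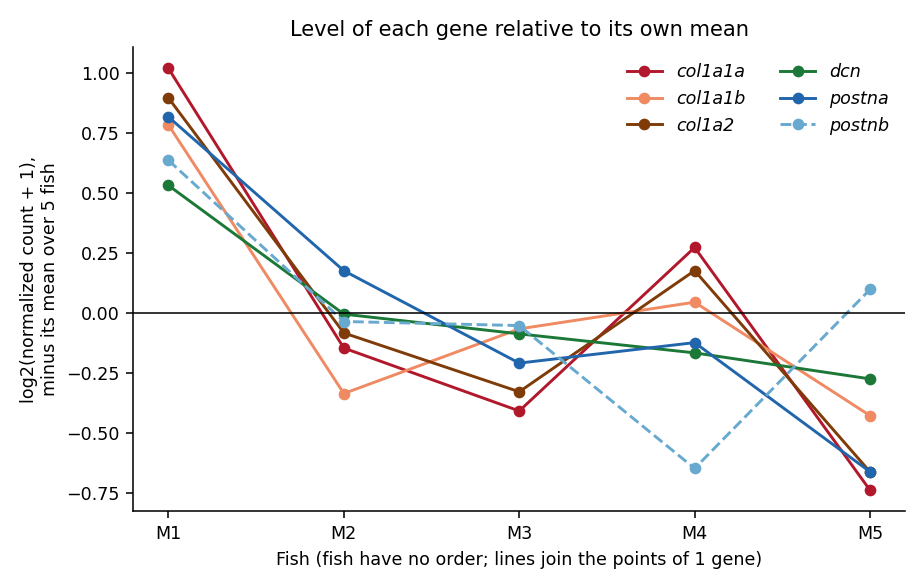
log2 of the normalized count plus 1, minus the mean of the gene over 5 fish (vertical axis), for the 6 genes in fish M1 to M5 (horizontal axis, which has no order). Lines join the points of 1 gene, and the dashed line is postnb. col1a1a and col1a2 run together (SD of their log2 ratio 0.10), while postnb is lowest in M4, the fish in which the 3 collagen genes are second.

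Likeness to col1a2 was ranked for the 7205 other genes with a mean of at least 100 normalized counts. col1a1a was the nearest of them. It was followed by rimbp2b (SD of the log2 ratio 0.12), sncgb (0.13), calcrlb (0.13) and lamb1b (0.16). rimbp2b encodes a RIM-binding protein, which in mammals acts at synapses, sncgb a gamma-synuclein, calcrlb a receptor of the calcitonin receptor-like kind and lamb1b a laminin β chain of basement membranes. Among the other members, postna ranked 14th, col1a1b 25th, dcn 135th and postnb 2081st. Without M1 these ranks were 459th, 616th, 1183rd and 5963rd of 7180 genes, and col1a1a ranked 19th. The rank of col1a1a was between 2 and 5 when another fish was left out. Without M4, postnb ranked 323rd of 7189 genes, and with M2, M3 or M5 left out it ranked between 1533rd and 2471st. Without M5, postna ranked 78th and col1a1b 54th, and without M3 postna ranked 38th. The ranks depended on the gene followed. By likeness to col1a1a, sncgb (0.080) was nearest and col1a2 ranked 2nd. col1a1a ranked 113th by likeness to col1a1b and 106th by likeness to postna. By likeness to dcn, col1a1b ranked 411th, postna 591st, postnb 1154th, col1a2 1601st and col1a1a 3459th of 7205 genes. The ratio of dcn to col1a2 varied more (SD 0.34) than dcn alone (0.31). col1a2 alone varied more widely still (0.59), and such unequal changes raise the SD of the ratio too. The ranks of dcn thus do not separate an unlike pattern over fish from smaller changes.

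A gene was said to track col1a2 when the SD of its log2 ratio to col1a2 was at most 0.5 times the SD of col1a2 itself. Of all genes tested, 60 of 7205 (0.833%) did so. Of the other 5 members, col1a1a, col1a1b and postna did. The same order of fish as col1a2, M1, M4, M2, M3 and M5 from high to low, was shared by col1a1a alone of the other members and by 1.43% of all genes tested. Without M1, 168 of 7180 genes (2.34%) tracked col1a2, and col1a1a was the only other member among them.

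**Figure D4:**
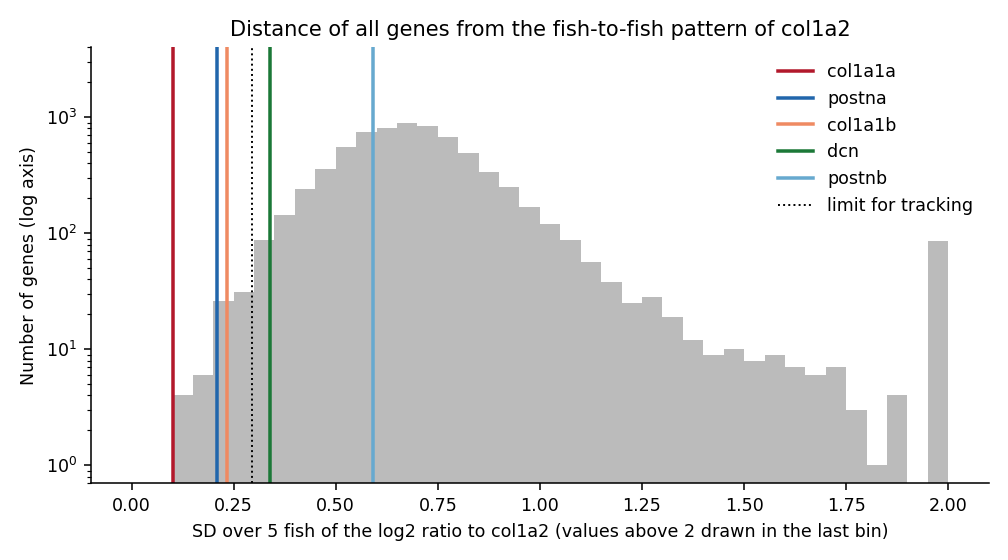
Number of genes (vertical axis, log scale) by the SD over 5 fish of their log2 ratio to col1a2 (horizontal axis, values above 2 drawn in the last bin), for genes with a mean of at least 100 normalized counts. Colored lines mark the other 5 members and the dotted line the limit for tracking. col1a1a at 0.10 lies at the low edge of all genes, and postnb at 0.59 lies among the bulk of them.

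The genes nearest to dcn were fynb (0.032), a kinase of the Src family, hsd11b2 (0.048), which in mammals inactivates cortisol, arrdc2 (0.065), an arrestin-domain gene, calm1b (0.075), a calmodulin gene, and dnaaf9 (0.078). None of the other members was among the 5 genes nearest to dcn. Chosen after their values were seen, the matrix genes mmp2 (0.11), which encodes a gelatinase, loxl2b (0.11), a lysyl oxidase-like gene of collagen cross-linking, and col6a2 (0.14), a type VI collagen chain, stood among the 5 nearest to col1a1b. The gene nearest to postna was fndc1 (0.086), which encodes a fibronectin type III domain protein, and the gene nearest to postnb was the kinase gene cilk1 (0.031). With 5 fish and so many genes, small values of this measure arise for unrelated genes too, so the lists carry no statement on shared control.

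Other genes of the matrix were counted from 7 lists, which held 79 genes with a mean of at least 100 normalized counts after the members were left out. The lists, like the members, were chosen with earlier results of these data known. Of these, 32 (40.5%) were highest in M1, against 15.1% of all genes tested, and 26 (32.9%) were lowest in M5, against 21.1%. The median log2 level in M1 over the mean of the other fish was 0.98 for the 6 members, 0.18 for the 79 genes and −0.088 for all genes tested. Of the 79 genes, 8 tracked col1a2, against 0.833% of all genes tested. Both the 32 and the 8 include pcolcea, which passed the limit of 100 only through its level in M1. Without M1, 4 of the 79 did so, against 2.34%, and 3 of these (sparc, tgfbi and lamb1b) were among the 8. Genes named because they tracked col1a2 were chosen after their values were seen, apart from sparc, and lamb1b was named for its small distance to col1a2. The shares of all genes tested, 15.1% highest in M1 and 0.833% tracking col1a2, also belong beside the counts of single lists below.

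Fibrillar and fibril-associated collagens other than type I were highest in M1 for 6 of 8 genes, with a median log2 level in M1 over the other fish of 0.47. None of the 8 tracked col1a2. Small leucine-rich proteoglycans other than dcn were highest in M1 for 2 of 4 genes, and none tracked. With 0.833% of all genes tested tracking col1a2, lists this short would mostly hold none. prelp, which anchors matrix to basement membranes, had 663 normalized counts (M1), 620 (M2), 443 (M3), 557 (M4) and 425 (M5). lum, the gene of lumican, had 296 (M1), 310 (M2), 144 (M3), 216 (M4) and 216 (M5). M1 was not alone at the top for either gene, since M2 lay close to or above it.

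Matricellular and elastic fiber genes were highest in M1 for 7 of 17, and 3 tracked col1a2, namely sparc, tgfbi and elna. sparc, whose product binds collagen and acts in its assembly, had 3340 normalized counts (M1), 2200 (M2), 2086 (M3), 2512 (M4) and 1807 (M5), the order of fish of col1a2. tgfbi is related to periostin and elna encodes an elastin. thbs1a, a thrombospondin gene, had 3930 (M1), 4717 (M2), 3689 (M3), 8332 (M4) and 1629 (M5), so that M4 and not M1 stood highest. dpt, the gene of dermatopontin, had 1352 in M1 and 1033 to 1070 in the other 4 fish.

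Genes of collagen biosynthesis went different ways across fish. The sum over all 35 matched genes stayed between 5608 and 6098 normalized counts. Single genes among the 15 with a mean of at least 100 spanned 1.30-fold to 3.04-fold, with a median of 1.71. The sum of the 3 chains spanned 2.91-fold, from M5 to M1, and rested largely on M1. Of 15 genes, 6 were lower in M1 than the mean of the other fish and 5 were highest in M1. Of the 15, 2 (pcolcea, whose product enhances procollagen C-proteinase, and loxl2b) tracked col1a2. pcolcea, with a mean of 102, passed the limit of 100 only through its level in M1, so its place in these counts is no support for them. p4hb, protein disulfide isomerase and a subunit of prolyl 4-hydroxylase, had 1093 normalized counts (M1), 708 (M2), 641 (M3), 952 (M4) and 730 (M5), so M1 and M4 were high as for col1a2. p4ha1a, the catalytic subunit of that enzyme, had 578 (M1), 780 (M2), 770 (M3), 631 (M4) and 727 (M5), with M1 and M4 lowest. ppib, a prolyl isomerase, had 349 (M1), 240 (M2), 264 (M3), 255 (M4) and 325 (M5), with M1 and M5 high. Chosen after their values were seen, pcolcea spanned 3.04-fold (171 in M1, 56.3 in M3) and loxl2a 2.03-fold with M1 lowest (435 in M1, 881 in M3). plod1a, a lysyl hydroxylase gene with a mean under 100, was highest in M1 (130) and lowest in M5 (44.9), with an SD of 0.11 for its log2 ratio to col1a2.

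Genes of collagen turnover were highest in M1 for 4 of 10, and mmp2 tracked col1a2. mmp14b, a membrane collagenase, had 482 normalized counts in M1 and 340 to 393 in the other fish. timp2a, an inhibitor of metalloproteinases, was highest in M4 (1833) and next in M1 (1729), and timp2b was highest in M4 too (279, against 197 to 239 in the other fish). Basement membrane and type VI collagen genes were highest in M1 for 6 of 13, and lamb1b and col6a2 tracked col1a2. col4a1 had 2962 normalized counts (M1), 2368 (M2), 1824 (M3), 2412 (M4) and 2014 (M5), and col4a2 shared its order of fish. lamc1, a laminin γ chain, spanned 1357 in M5 to 2167 in M3 and was not highest in M1. Single genes of this list spanned 1.08-fold to 2.31-fold.

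Of 12 TGF-beta signaling genes, 2 were highest in M1, against 15.1% of all genes tested, and none tracked col1a2, against 0.833%. These counts lay near the shares of all genes and do not set the list apart. Single genes spanned 1.38-fold to 2.55-fold. tgfb3, a ligand, had 288 normalized counts (M1), 418 (M2), 438 (M3), 441 (M4) and 274 (M5). tgfbr2b, a receptor, had 334 (M1), 453 (M2), 766 (M3), 492 (M4) and 710 (M5), and smad7, an intracellular inhibitor, had 571 to 789. M1 was the lowest fish for tgfbr2b and next to lowest for tgfb3 and smad7.

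**Figure D5:**
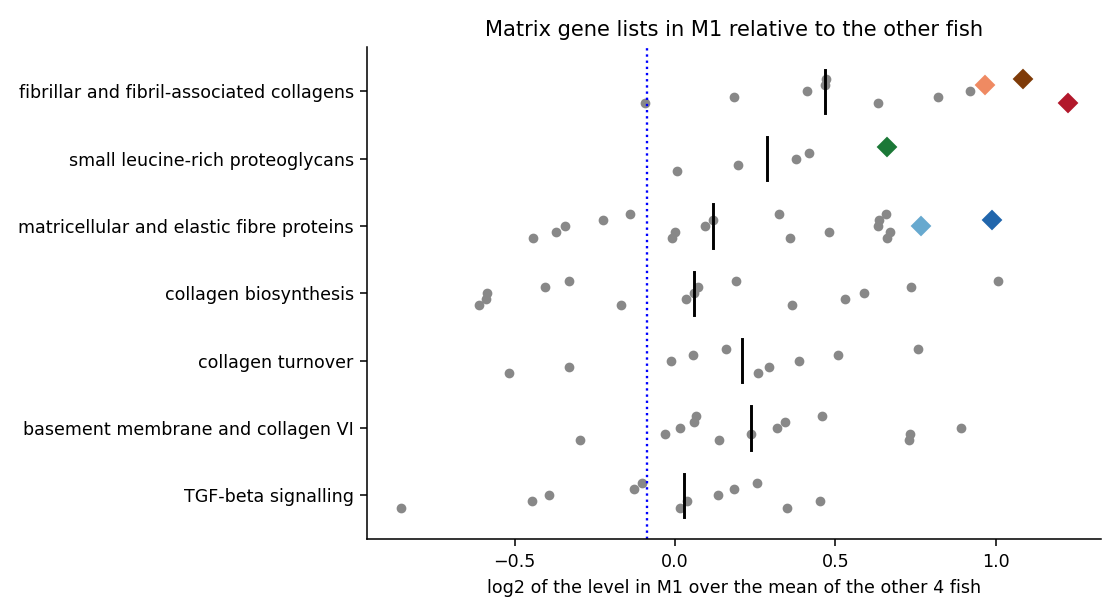
log2 of the normalized count in M1 over the mean of the other 4 fish (horizontal axis) for genes of the 7 matrix lists (rows) with a mean of at least 100 normalized counts. Colored diamonds are the 6 members, gray points the other genes, black bars the median of each list without members and the dotted line the median of all genes (−0.088). The members, with a median of 0.98, lie at or near the right end of their lists, and 6 of the 7 lists have genes on both sides of 0.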

How the data were processed

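RNA-Seq of fast muscle covered 5 fish of 1 group, each a separate replicate with 1 library. The authors trimmed reads with BBDuk, aligned them with HISAT2 2.1.0 and counted fragments with featureCounts of the Subread package. They deposited raw counts per listed transcript and its length in bases. Primary alignments were counted, chimeric fragments were left out and a fragment could count on several transcripts. The strand setting of the counting is not given in the sources used here, so antisense reads cannot be told apart. The antisense gene within col1a2 (LOC102079381) shares 0 exon bases with it and had at most 1 count per library. Fragments shared between paralogs were not measured.

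Counts were divided by DESeq2 1.42.0 median-of-ratios size factors (R 4.3.3, no groups), and edgeR 4.0.16 gave TMM factors. The ratios were computed with scipy 1.17.1, pandas 2.3.3 and numpy 2.4.6 (Python 3.11.15) and plotted with matplotlib 3.10.9. By coordinates, 77788 of 80416 features matched 1 of 42480 genes of the RefSeq table (O_niloticus_UMD_NMBU). The most abundant transcript stood for each gene. No column was left out (0 not used). Total counts per library were 26750559 (M1), 90337019 (M2), 36731226 (M3), 33648416 (M4) and 38643609 (M5). Reads lacked molecular identifiers and need not be independent molecules, so counting intervals cover counting error only.

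Log values used a pseudocount of 1. Of 7 ratios tested by exact sign permutation within fish, 4 stood in the design and 3 (col1a1a to col1a2, col1a1b to col1a2, dcn to postnb) were added after the values were seen. The members and lists were chosen with earlier results of these data known. Named are the members, the 3 genes of highest level per kb in each list, and the 5 genes nearest to col1a2 and to dcn, and any other gene was chosen after its values were seen. Alternatives were TMM, total-only and one-transcript-per-gene scaling, regularized log values, a pseudocount of 0.1, other count filters, other transcripts, no division by length, down-sampling to the smallest library, and leaving out each fish. On simulated data, 192 of 200 genes made to follow col1a2 were found, and 2 of 7005 flat genes were called. The flat genes had the same small random spread for each gene and no pattern shared between fish, unlike the real genes. These counts check the rule and do not give its rate of false calls in the data.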

Additional observations from a re-analysis of the deposited data

Results flagged for a closer look

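In 4 of 33 sets of 5 values, 1 fish lay far from the other 4 by Dixon's ratio, the gap to the nearest fish over the whole range, against a critical value of 0.71. For independent normal sets, 5% would be about 1.65 of 33. These sets share the same 5 fish and are not independent, so the counts cannot be compared. For dcn the ratio was 0.725, with M1 at 1022 normalized counts and the other fish at 585 to 705. For dpt it was 0.882, with M1 at 1352 and the other fish at 1033 to 1070. The share of ribosomal RNA had a ratio of 0.956, with M1 at 0.201% and the other fish at 0.00784% to 0.0164%. The total count had a ratio of 0.813, with M2 at 90337019 counts and the other fish at 26750559 to 38643609. The type I collagen genes were not among these sets, at 0.573 for col1a1a and 0.705 for col1a1b, although M1 was their highest fish.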

How the results depend on the processing

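No paired analysis was possible because the libraries form 1 group, so that no groups could be paired by replicate number (ratios were tested within fish). Of 280 alternative values, 259 kept their direction and, where untested, stayed within 1.5-fold or 1 SD. Means of some tested log2 ratios kept direction but moved without division by length. They were −3.31 (dcn to col1a2), 0.54 (col1a1a to col1a2), −0.088 (col1a1b to col1a2, exact p = 0.375) and 0.63 (col1a1a to col1a1b). The chain ratio moved to −0.24 with the shortest transcripts. Reversed were the chain log2 ratio without division by length (0.27), col1a1a to col1a2 with the shortest listed transcripts (−0.098) and dcn to postnb without division by length (−0.52). The SD of postna was 0.35 with regularized log values. Genes that track col1a2 numbered 162 with at least 10 counts in every fish, 263 with no filter and 117 to 168 with 1 fish left out, against 60. With 1 fish left out, SDs of log2 counts ranged from 0.43 to 0.78 for col1a1a, 0.22 to 0.55 for col1a1b, 0.36 to 0.68 for col1a2, 0.11 to 0.36 for dcn and 0.35 to 0.62 for postna, with the lowest without M1. SDs of log2 ratios ranged from 0.11 to 0.35 for col1a1b and postna (lowest without M2), 0.30 to 0.54 for col1a1b and postnb and 0.18 to 0.36 for dcn and postnb (both lowest without M4), and 0.18 to 0.30 for dcn and postna and 0.28 to 0.55 for postna and postnb (both lowest without M5). The cause was not tested. Division by coding length was not run. With 5 fish no p under 0.0625 was possible, so the tests say nothing on stability. Levels per kb rest on the annotated lengths, and 3′ ends of the isoforms differ.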
